A study of Mus musculus with 8 samples.

Results

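Proliferation and neural progenitor genes were examined as a set of 31 mouse genes in RNA sequencing data from cultured cortical neurons. The members were taken from a list by name, 26 of them genes of the cell cycle and 5 of them genes of neural progenitors, out of 23830 genes in the table. They kept their place if they reached at least 1 FPKM (fragments per kilobase of transcript per M mapped fragments, a level corrected for length and depth) in at least 2 of the 8 libraries. This kept 30 members and 13089 genes in all. Eomes did not pass, with 1 library at 1.11 FPKM and the others at 0.356 to 0.994 FPKM. Just inside the limit, Tyms had at least 1.85 FPKM, Cenpe at least 1.78 FPKM and Cenpf at least 1.92 FPKM in every library.

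The cultures were made from embryonic day 16.5 cortex and grown for 6 days in Neurobasal medium with B27. Each of them received 1 µM tetrodotoxin, which blocks voltage-gated sodium channels and so silences firing, overnight from day 5. Part of the cultures of each genotype was then depolarised with 55 mM KCl for 4 h. The 4 groups are Control, Rem2 KO, Control_KCl and Rem2 KO_KCl, each with 2 biological replicates numbered 1 and 2. The product of Rem2 is an RGK-type GTPase, a class of proteins that dampen calcium channel currents. The genotype field reads Rem2 flx/flx in every library, Controls included, and the source of Cre and the deleted exons are not stated, so the groups rest on the library titles. Rem2 itself was at 6.29, 2.54, 22.5 and 21.4 FPKM in Control replicates 1 and 2 and Control_KCl replicates 1 and 2. It was at 2.13, 1.70, 11.7 and 12.4 FPKM in the matching Rem2 KO libraries, lower in 4 of 4 couples, and the averaged difference of -0.81 (SE 0.23) did not pass the test (limma adjusted p = 1, or 0.167 with the replicate block).

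Before a cell divides, the minichromosome maintenance (MCM) helicase is loaded on DNA during G1, the sliding clamp PCNA and the nucleotide-making enzymes serve S phase, and cyclins with their kinases drive mitosis. Transcription of many of these genes is known to be held by E2F factors at the G1/S boundary and by the MuvB-containing complexes, with NF-Y, at G2/M. Cortical neurons are postmitotic, and dividing cells in such a culture belong to residual progenitors and to glia. SOX2, PAX6 and the filament protein nestin mark radial glia, while NEUROG2 and EOMES mark the step toward excitatory neurons. In bulk RNA, fewer cells of a type and less RNA per cell cannot be told apart.

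Sequence upstream of the transcription start was available for 27 of the 31 members from RefSeq (GRCm38.p6, the assembly called mm10 elsewhere), in 28 windows of 300 bases that run from 250 bases before the start to 50 after it. The windows were searched on both strands for CCAAT (the NF-Y box), for TTTGAA or TTTAAA (the cell cycle homology region, CHR, bound by MuvB complexes) and for TTTGGCGC or TTTCGCGC (E2F-type sites). The 250 upstream bases are printed for 6 members that the results below turn on, 5′ to 3′ on the strand of the gene, with every match on either strand in capitals. Adjoining capitals in Mcm5 and Mcm6 are 2 overlapping E2F-type matches on opposite strands. Mcm5 (chr8:75109259-75109508, plus strand) and Mcm6 (chr1:128359706-128359955, minus strand) encode helicase subunits. Pcna (chr2:132253181-132253430, minus strand) encodes the sliding clamp and Top2a (chr11:99024190-99024439, minus strand) the topoisomerase that untangles sister chromatids. Ccnb2 (chr9:70421555-70421804, minus strand) encodes a mitotic cyclin and Neurog2 (chr3:127632886-127633135, plus strand) a proneural transcription factor.
Mcm5: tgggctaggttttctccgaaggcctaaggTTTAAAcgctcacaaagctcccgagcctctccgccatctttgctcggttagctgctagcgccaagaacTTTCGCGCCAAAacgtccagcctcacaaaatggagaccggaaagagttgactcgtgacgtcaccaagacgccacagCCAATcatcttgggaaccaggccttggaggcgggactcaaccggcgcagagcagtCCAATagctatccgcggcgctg
Mcm6: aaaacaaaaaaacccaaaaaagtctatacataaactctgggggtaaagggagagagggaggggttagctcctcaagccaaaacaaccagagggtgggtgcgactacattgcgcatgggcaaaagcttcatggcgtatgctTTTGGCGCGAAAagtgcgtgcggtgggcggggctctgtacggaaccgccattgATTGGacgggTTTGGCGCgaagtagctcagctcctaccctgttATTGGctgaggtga
Pcna: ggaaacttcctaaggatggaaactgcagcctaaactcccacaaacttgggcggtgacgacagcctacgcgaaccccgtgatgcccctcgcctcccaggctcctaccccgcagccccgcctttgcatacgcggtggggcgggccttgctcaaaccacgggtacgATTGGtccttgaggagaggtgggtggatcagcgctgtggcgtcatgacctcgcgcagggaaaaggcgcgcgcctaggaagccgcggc
Top2a: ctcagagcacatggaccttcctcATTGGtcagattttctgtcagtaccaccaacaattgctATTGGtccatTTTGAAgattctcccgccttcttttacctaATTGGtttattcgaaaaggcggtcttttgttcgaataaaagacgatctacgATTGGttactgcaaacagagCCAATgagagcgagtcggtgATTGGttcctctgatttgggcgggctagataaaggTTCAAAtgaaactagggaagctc
Ccnb2: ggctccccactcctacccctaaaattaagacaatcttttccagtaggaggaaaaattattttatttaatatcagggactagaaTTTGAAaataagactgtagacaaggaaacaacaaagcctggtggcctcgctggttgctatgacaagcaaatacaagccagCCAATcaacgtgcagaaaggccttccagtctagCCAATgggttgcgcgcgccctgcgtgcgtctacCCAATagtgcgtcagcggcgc
Neurog2: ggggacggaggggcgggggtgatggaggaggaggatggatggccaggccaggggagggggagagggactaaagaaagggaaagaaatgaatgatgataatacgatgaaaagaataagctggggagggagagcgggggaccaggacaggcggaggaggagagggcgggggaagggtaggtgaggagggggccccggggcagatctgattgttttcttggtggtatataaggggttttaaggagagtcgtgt

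CCAAT was found in 23 of the 28 member windows (82.1%), against 37.4% of all 32851 mouse windows and 37.9% of the windows of genes tested. A CHR-type match was found in 20 member windows (71.4%), against 27.6% of all windows and 19.3% of those of tested genes. Both motifs stood together in 16 of the 22 windows of cell cycle members (72.7%) and in 7.67% of the windows of tested genes. Every window of the spindle and chromosome members (7 of 7) and 7 of 8 windows of the cyclins and mitotic kinases held a CHR-type match, as did 3 of 7 windows of the replication members. E2F-type matches were found for 4 members, namely Mcm3, Mcm5, Mcm6 and Cdk1 (14.3% of member windows, against 1.55% of those of tested genes). Top2a held 6 CCAAT boxes, on both strands, and Ccnb2 held 3 boxes on the strand of the gene, at -87, -54 and -21 from the start. Pcna held 1 CCAAT box and no match to the other motifs, and the Neurog2 window held no match to any of them. A match is a run of letters in a window and was not tested as a binding site.

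Among the members, Pcna had the highest level, with a mean of 109.0 FPKM over the 8 libraries, followed by Sox2 at 72.7 FPKM and Hmgb2, a chromatin protein abundant in progenitors, at 43.0 FPKM. Top2a followed at 29.4 FPKM, Rrm2 (ribonucleotide reductase subunit) at 26.8 FPKM, Nes (nestin) at 23.8 FPKM and Ccna2 (cyclin A2) at 20.3 FPKM. The 4 MCM members lay between 10.8 FPKM for Mcm3 and 17.0 FPKM for Mcm6. At the low end were Bub1 (a spindle checkpoint kinase) at 4.34 FPKM, the kinetochore proteins Cenpf at 4.41 FPKM and Cenpe at 3.74 FPKM, and Tyms (thymidylate synthase) at 2.81 FPKM. Neighbours in this order from Hmgb2 downward overlap across libraries, and most of these levels differed more between replicate numbers than between neighbours. Kif20a, a mitotic kinesin, was listed at 0 in all 4 libraries numbered 1 and at 7.99, 13.1, 7.16 and 9.51 FPKM in Control, Rem2 KO, Control_KCl and Rem2 KO_KCl replicate 2. A listed 0 can be a failed estimate, so no fold is given for it.

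**Figure D1:**
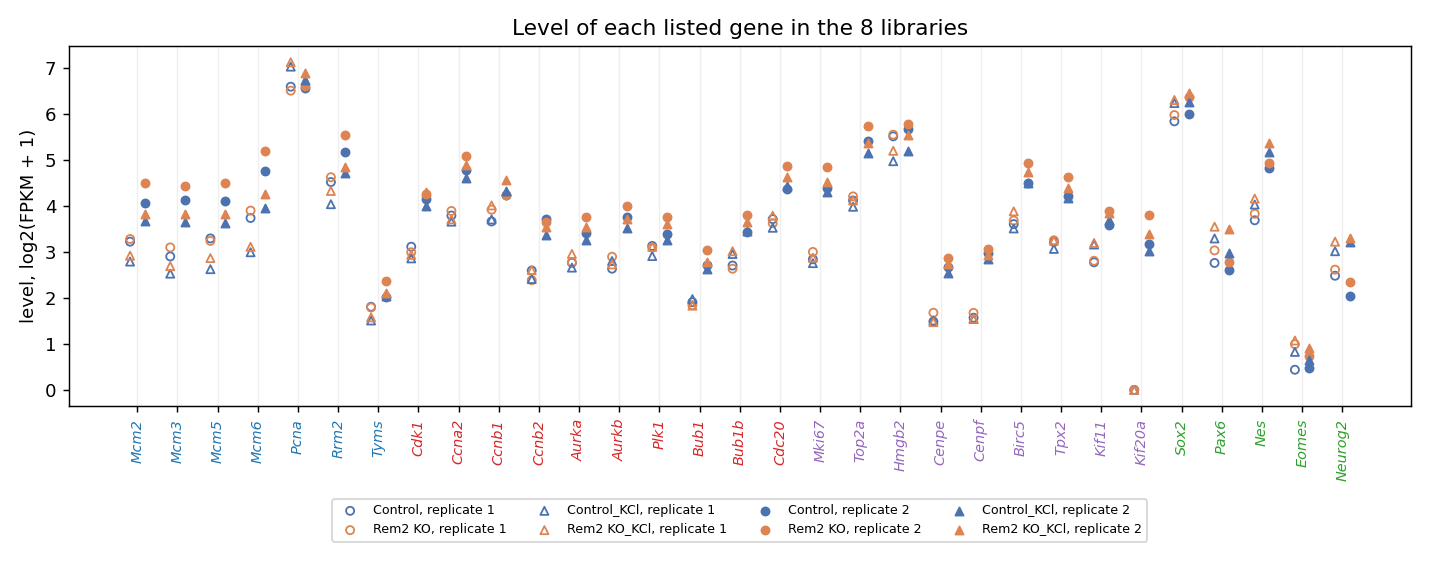
Level of each of the 31 listed genes in each library, as log2(FPKM + 1), with open symbols for replicate 1, filled symbols for replicate 2, circles without KCl, triangles with KCl, blue for Control and orange for Rem2 KO; gene names are coloured by role (blue replication, red cyclins and mitotic kinases, purple spindle and chromosomes, green progenitor genes). For 24 of the 26 cell cycle members all filled symbols lie above all open ones, while Pcna, Hmgb2, Sox2, Pax6 and Neurog2 overlap.

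The libraries numbered 2 stood apart from those numbered 1 in the level of nearly all cell cycle members. Mki67, the gene of the Ki-67 proliferation antigen, was at 6.18, 7.03, 5.77 and 6.36 FPKM in Control, Rem2 KO, Control_KCl and Rem2 KO_KCl replicate 1. In the same order of groups it was at 20.1, 28.0, 18.9 and 22.2 FPKM in replicate 2. All 4 libraries numbered 2 were above all 4 numbered 1, at 3.25 to 3.98 times the level of the same group. Top2a was at 16.4, 17.6, 14.9 and 16.5 FPKM in the libraries numbered 1 and at 41.8, 53.1, 35.0 and 40.3 FPKM in those numbered 2. Here too the sets did not overlap, and the ratio within a group was 2.35 to 3.02. Cdk1, the kinase that starts mitosis, was at 6.28 to 7.68 FPKM in the libraries numbered 1 and at 15.1 to 18.9 FPKM in those numbered 2.

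With the replicate number as a term in the limma model, 26 of the 30 members tested were higher in the libraries numbered 2 and 1 was lower, against 40.3% of all genes higher and 11.2% lower. The median difference in log2(FPKM + 1) was 0.98 for the members and 0.14 for all genes tested. The spindle and chromosome members had a median of 1.17 with or without Kif20a, the replication members 0.97, the cyclins and mitotic kinases 0.91, and the progenitor genes 0.04. Mki67 differed by 1.65 (SE 0.07, adjusted p = 1.06e-05), Cenpf by 1.38 and Top2a by 1.31. Kif20a, which passed the filter through the libraries numbered 2 alone, is among the 26, and without it 25 of 29 members were higher, with a median of 0.97. Groups did not overlap for 24 of the 26 cell cycle members, or 23 of 25 without Kif20a, against 20.3% of all genes tested, and 0 members lay wholly below, against 5.81% of genes. Pcna did not pass (-0.11, adjusted p = 0.243), and Hmgb2 passed with a difference of 0.24 although its libraries overlap. Of the progenitor genes, Nes was higher in the libraries numbered 2 (1.15, SE 0.05, adjusted p = 9.78e-06), from 11.9 to 16.9 FPKM in replicate 1 to 27.3 to 40.7 FPKM in replicate 2. Sox2 (0.18, adjusted p = 0.0556) and Neurog2 (-0.11, adjusted p = 0.464) did not pass, and Pax6 was called lower (-0.19, adjusted p = 0.0476), a call lost when any 1 of the 8 libraries was left out and turned to 0.11 when only its most abundant transcript entry was used.

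**Figure D2:**
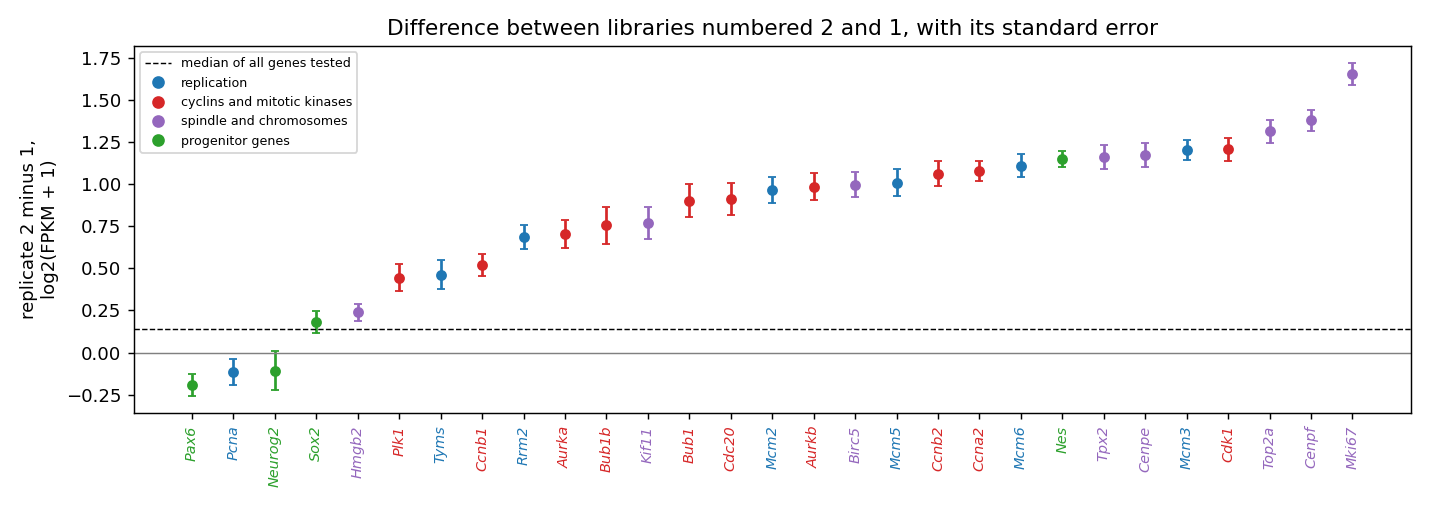
Difference in log2(FPKM + 1) between the 4 libraries numbered 2 and the 4 numbered 1 for 29 members, from the limma model with the replicate number as a term (Kif20a, listed at 0 in every library numbered 1, is not drawn); bars are standard errors, colours give the role and the dashed line is the median of all genes tested, 0.14. Most members lie near 1, with Mki67 highest at 1.65, and Pax6, Pcna and Neurog2 lie just under 0.

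The replicate number is no condition of the study, and the labels do not say whether it stands for a culture, a litter or a sequencing run. Depth differed with it as well, from roughly 19.5 to 22.4 M fragments per library under number 1 up to 37.2 to 44.7 M fragments under number 2, read from the steps between low FPKM values. Several marker lists for other cells moved with it too. The summed level of 8 radial glia and progenitor markers, 4 of which are members here, was 1428 to 1790 FPKM in the libraries numbered 1 and 1970 to 2482 FPKM in those numbered 2. Microglial markers summed to 12.2 to 15.2 FPKM and 27.8 to 38.7 FPKM, astrocyte markers to 303 to 353 FPKM and 394 to 490 FPKM, and fibroblast markers to 32.8 to 43.2 FPKM and 53.3 to 60.9 FPKM. The sum of endothelial and mural markers went the other way, at 22.4 to 35.2 FPKM and 14.2 to 16.8 FPKM. In it Cldn5 and Pecam1 were lower in 4 of 4 groups and Kdr was mixed. The mural genes did not follow the sum, with Rgs5 higher in 4 of 4 groups and Pdgfrb in 3. Within the astrocyte list, 7 of 8 genes had values and were summed, and Gjb6 was at or near 0 in every library. Gfap, Aldh1l1 and Slc1a3 were higher in 4 of 4 groups, S100b was lower in 4 of 4, and Aldoc and Slc1a2 were mixed. Oligodendrocyte lineage markers overlapped (316 to 362 FPKM and 301 to 482 FPKM), as did interneuron markers (417 to 1444 FPKM and 377 to 1746 FPKM). Neuronal markers overlapped as well (1568 to 1808 FPKM and 1584 to 1957 FPKM), with Snap25 and Syt1 at 71.2 FPKM or more in each library. The part of other cells in the members' levels was not tested.

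Depolarisation was compared with silence within each genotype. Across both genotypes, genes of the MCM helicase and Rrm2 were lower with KCl, mitotic genes gave no call, and Pax6, Nes and Neurog2 were higher, with the calls of all but Neurog2 resting on the replicate block. In the planned model without a replicate term, only Neurog2 passed in each genotype. With the replicate number as a block, 10 of 30 members passed in each genotype, 4 higher and 6 lower. Of all genes, 14.4% were higher and 34.3% lower in Control with the block, and 16.1% and 31.4% in Rem2 KO. Same-numbered libraries deviated together in all groups, so both results are given.

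Neurog2, which drives progenitors toward the excitatory neuron fate, was at 4.60 and 3.11 FPKM in Control replicates 1 and 2 and at 7.11 and 8.28 FPKM in Control_KCl. In Rem2 KO it was at 5.14 and 4.09 FPKM without KCl and at 8.37 and 8.96 FPKM with it. All 4 depolarised libraries were above all 4 silenced ones. In Control the rise was 0.85 in log2(FPKM + 1) (SE 0.20, limma adjusted p = 0.0352), and in the knockout it was 0.79 (SE 0.20, limma adjusted p = 0.0458). This was 1 of 30 members called higher and 0 called lower in each genotype, against 5.18% of all genes higher and 12.2% lower in Control, and 5.73% and 10.3% in Rem2 KO. At an unadjusted p under 0.05 there were 2 members higher and 1 lower in Control, and 3 higher and 0 lower in Rem2 KO. The shares of all genes at that p were 9.49% higher and 23.1% lower in Control, and 10.8% and 20.6% in Rem2 KO. Leaving out any 1 of the 8 libraries ended the Control call of Neurog2 in this model (limma adjusted p up to 0.163), and the Rem2 KO call was lost without any 1 library other than Control replicate 1 or 2. With the block Neurog2 passed in both (limma adjusted p = 0.00619 for Control, 0.00875 for Rem2 KO).

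Mcm6 was at 12.4 and 26.3 FPKM in Control replicates 1 and 2 and at 6.98 and 14.6 FPKM in Control_KCl. It was at 14.0 and 35.7 FPKM in Rem2 KO and at 7.67 and 18.2 FPKM in Rem2 KO_KCl. Within each replicate number both depolarised libraries lay below both silenced ones, at 0.509 to 0.563 times the level, while the 8 libraries overlap when both numbers are pooled. With the replicate block Mcm6 fell by 0.78 in Control (SE 0.10, limma adjusted p = 0.00111) and by 0.86 in Rem2 KO (SE 0.10, limma adjusted p = 0.000824). Without the block the same differences did not pass (SE 0.65, limma adjusted p = 0.494 and 0.445).

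The other helicase members were lower with KCl in 4 of 4 couples as well. Mcm5 was at 8.84 and 16.2 FPKM in Control, 5.19 and 11.4 FPKM in Control_KCl, 8.48 and 21.8 FPKM in Rem2 KO and 6.31 and 13.3 FPKM in Rem2 KO_KCl. With the block Mcm5 fell by 0.57 in Control and by 0.53 in Rem2 KO, Mcm3 by 0.43 and 0.51, and Mcm2 by 0.42 and 0.52 (limma adjusted p = 0.00381 to 0.0193). Rrm2, whose product limits the supply of deoxynucleotides, was at 22.0 and 35.3 FPKM in Control, 15.5 and 25.2 FPKM in Control_KCl, 23.8 and 45.5 FPKM in Rem2 KO and 19.1 and 27.7 FPKM in Rem2 KO_KCl. It was lower with KCl in 4 of 4 couples, and with the block it fell by 0.48 in Control (limma adjusted p = 0.00843) and by 0.50 in Rem2 KO (limma adjusted p = 0.00739). Tyms, which makes thymidylate, differed by -0.14 and -0.24 and did not pass in either genotype (limma adjusted p = 0.396 and 0.157 with the block).

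Pcna went in the direction opposite to the helicase genes. It was at 96.2 and 93.8 FPKM in Control, 131 and 106 FPKM in Control_KCl, 90.5 and 97.5 FPKM in Rem2 KO and 139 and 118 FPKM in Rem2 KO_KCl. All depolarised libraries were above all silenced ones. With the block Pcna rose in Rem2 KO (0.45, SE 0.11, limma adjusted p = 0.0146) and did not pass in Control (0.31, SE 0.11, limma adjusted p = 0.0534), and without the block it passed in neither (limma adjusted p = 0.196 and 0.0838, Control first). PCNA also serves DNA repair, and its gene has 2 annotated pseudogene copies whose reads may be shared, so its level is less certain than that of the MCM genes.

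The cyclins, mitotic kinases, checkpoint kinases and activators of the anaphase-promoting complex gave no call with KCl in either genotype or either model (0 of 10). Their median differences were -0.09 in Control and -0.03 in Rem2 KO, against -0.14 and -0.12 for all genes tested. Ccna2, which acts in S phase and G2, was at 12.9 and 26.8 FPKM in Control, 11.7 and 23.4 FPKM in Control_KCl, 13.9 and 33.0 FPKM in Rem2 KO and 12.1 and 28.6 FPKM in Rem2 KO_KCl. It was the member of this group that was lower in 4 of 4 couples, and its differences of -0.16 and -0.19 did not pass (limma adjusted p = 0.168 and 0.113 with the block). Ccnb1 (cyclin B1) was higher in 4 of 4 couples by 0.06 and 0.21 on average, which did not pass either (limma adjusted p = 0.614 and 0.0994 with the block). Cdk1, Ccnb2, Aurka and Aurkb (Aurora kinases), Plk1 (polo-like kinase), Bub1, Bub1b and Cdc20 (APC activator) differed by -0.27 to 0.14.

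Of the spindle and chromosome members, Hmgb2 was the only one to pass, and only with the block. Hmgb2 was at 44.9 and 50.5 FPKM in Control and at 30.6 and 35.6 FPKM in Control_KCl. In Rem2 KO it was at 46.1 and 54.1 FPKM without KCl and at 35.9 and 46.0 FPKM with it. The silenced and depolarised Control libraries did not overlap, and in Rem2 KO replicate 2 with KCl lay just under replicate 1 without it. With the block it fell by 0.52 in Control (SE 0.07, limma adjusted p = 0.00154) and by 0.29 in Rem2 KO (SE 0.07, limma adjusted p = 0.0147). Mki67 (-0.09 and -0.22) and Top2a (-0.19 and -0.24) did not pass, nor did Birc5 (survivin), Tpx2 (a spindle assembly factor), Kif11 (the kinesin that separates spindle poles), Cenpe and Cenpf, which ranged from -0.17 to 0.25. Kif20a did not pass either, and its couples in replicate 1 hold only listed zeros.

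Progenitor genes other than Neurog2 were also higher with KCl in 4 of 4 couples. Among the marker lists, summed interneuron markers were higher with KCl in 4 of 4 couples as well, from 377 to 495 FPKM without it to 1343 to 1746 FPKM with it. In that list Gad1, Gad2, Slc32a1, Sst, Npy, Dlx1 and Dlx5 were higher in 4 of 4 couples. Lhx6 was lower in 4 of 4, so the list did not move as one. Radial glia and progenitor markers, which include Sox2, Pax6, Nes and Eomes, went from 1531 to 1428 FPKM and from 1970 to 2220 FPKM in Control and from 1639 to 1790 FPKM and from 2355 to 2482 FPKM in Rem2 KO, and the part of either list in the members' values was not tested. Sox2 was at 56.6 and 63.8 FPKM in Control, 74.9 and 76.1 FPKM in Control_KCl, 62.4 and 81.8 FPKM in Rem2 KO and 78.5 and 87.2 FPKM in Rem2 KO_KCl. Pax6 was at 5.79 and 5.13 FPKM in Control, 8.83 and 6.93 FPKM in Control_KCl, 7.21 and 5.86 FPKM in Rem2 KO and 10.7 and 10.3 FPKM in Rem2 KO_KCl. For Pax6 the silenced and depolarised libraries overlap across genotypes but not within a genotype. With the block, Pax6 rose in Control (0.45, SE 0.09, limma adjusted p = 0.00807) and in Rem2 KO (0.62, SE 0.09, limma adjusted p = 0.00247), and Nes rose in both (0.35 and 0.38, limma adjusted p = 0.00554 and 0.00404). Sox2 rose in Control (0.32, limma adjusted p = 0.0276) and did not pass in Rem2 KO (0.21, limma adjusted p = 0.109). The Pax6 level is a sum over several transcript entries, and with only the most abundant entry, without the block, the differences were 0.15 in Control and 0.34 in Rem2 KO (limma adjusted p = 0.712 and 0.342). Eomes, outside the tests, was at 0.356 and 0.382 FPKM in Control, 0.775 and 0.577 FPKM in Control_KCl, 0.994 and 0.671 FPKM in Rem2 KO and 1.11 and 0.877 FPKM in Rem2 KO_KCl.

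**Figure D3:**
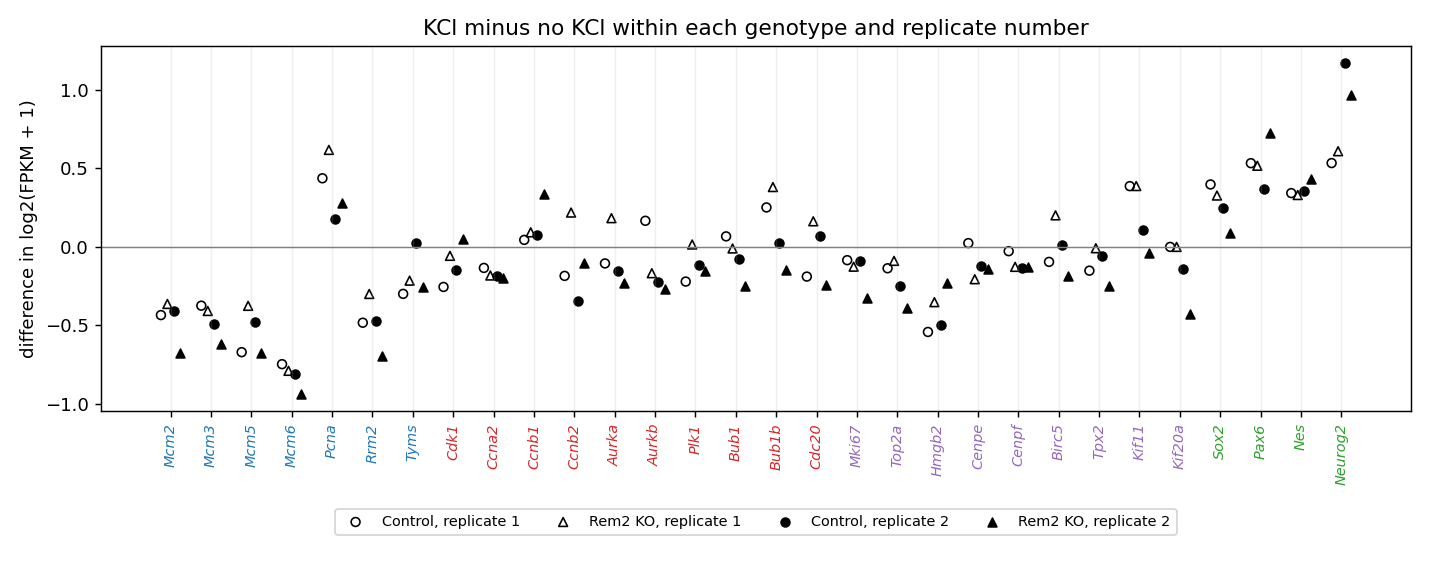
Difference in log2(FPKM + 1) between the depolarised and the silenced library of the same genotype and replicate number, for each of the 30 members tested; circles are Control, triangles Rem2 KO, open symbols replicate 1 and filled symbols replicate 2. The 4 MCM members, Rrm2 and Hmgb2 lie below 0 in all 4 couples, Pcna and the progenitor genes lie above 0, and most mitotic members scatter around 0.

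In all, the block gave 4 members higher and 6 lower in each genotype, against 14.4% of all genes higher and 34.3% lower in Control, and 16.1% higher and 31.4% lower in Rem2 KO. In sign, 11 of 30 members were lower in all 4 couples and 6 were higher, against 46.8% and 23.7% of all genes. The share of members called lower was below that of all genes, and the share called higher was near it. Over the role groups, 5 of 7 replication members were lower in each genotype, 0 of 10 cyclins and mitotic kinases, and 1 of 9 spindle and chromosome members. Of the 4 progenitor genes tested, 4 were higher in Control and 3 in Rem2 KO. Scaling matters here, since the median of all genes with KCl moved by 0.15 in Control and 0.12 in Rem2 KO under TMM-type scaling, and by 0.11 and 0.09 under quantile normalization. Mcm5, Mcm6, Rrm2, Pax6, Nes and Neurog2 passed with the block in both genotypes under all 3 scalings. In Control, Mcm2 did not pass with either rescaling and Mcm3 did not pass with quantile normalization, while Kif11 passed as higher with both (0.40 and 0.44) and Pcna with TMM-type scaling (0.48). In Rem2 KO with TMM-type scaling, Hmgb2 did not pass, and Ccnb1 (0.34) and Sox2 (0.34) passed as higher. The median of the cyclins and mitotic kinases changed sign, from -0.09 to 0.06 and 0.09 in Control and from -0.03 to 0.09 and 0.12 in Rem2 KO. With the block and each library left out in turn, Mcm6 passed in 8 of 8 fits in both genotypes, Hmgb2 in 8 of 8 in Control, and Mcm3, Pax6 and Nes in 8 of 8 in Rem2 KO, whereas the other calls held in 5 to 7 of 8. Leaving out Control_KCl replicate 2 ended the Control calls of Mcm2, Mcm3, Mcm5, Rrm2 and Neurog2, and leaving out Control_KCl replicate 1 those of Mcm2, Rrm2, Nes, Pax6 and Sox2. Control replicate 1 was needed for Mcm2, Mcm5, Rrm2, Pax6 and Sox2, and Control replicate 2 for Sox2. In Rem2 KO, the calls of Mcm2, Mcm5, Rrm2 and Neurog2 ended without Rem2 KO_KCl replicate 2, those of Mcm5 and Neurog2 also without Rem2 KO replicate 2, and those of Hmgb2 and Pcna without either library numbered 1 of that genotype.

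**Figure D4:**
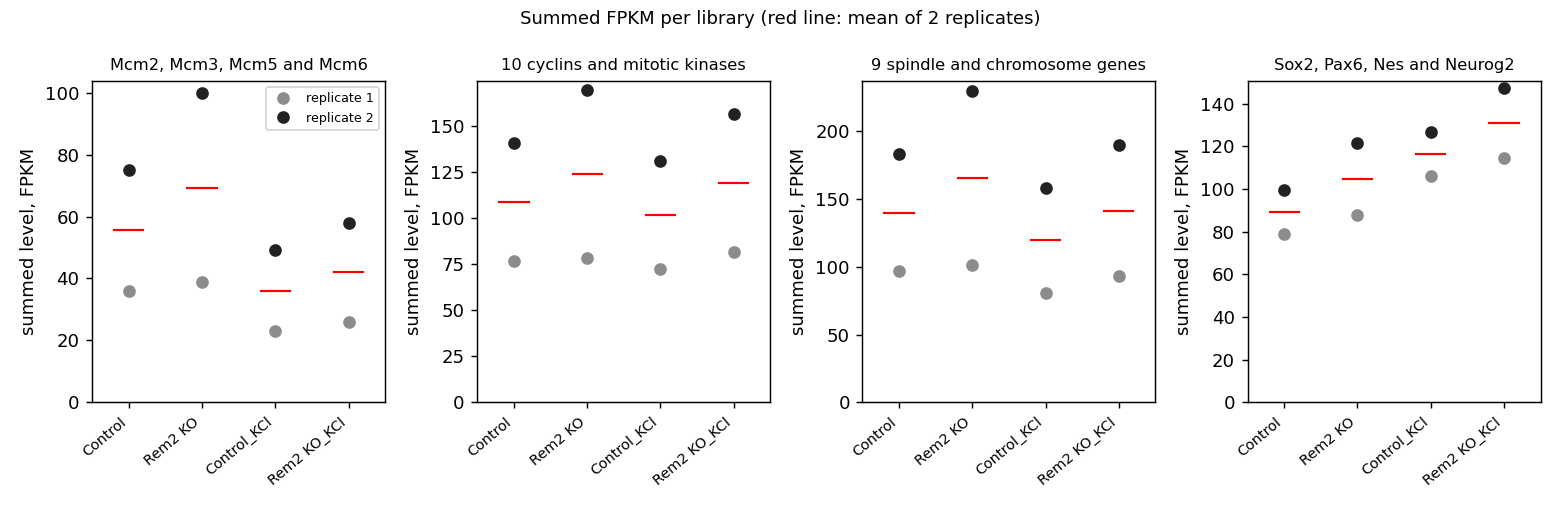
Summed level in FPKM per library for 4 sets of members (Mcm2, Mcm3, Mcm5 and Mcm6; the 10 cyclins and mitotic kinases; the 9 spindle and chromosome genes; Sox2, Pax6, Nes and Neurog2), with grey points for replicate 1, black points for replicate 2 and red lines for the mean of both. The MCM sum is lower with KCl in every couple (36.1 to 22.9 FPKM in Control replicate 1, 75.1 to 49.2 FPKM in Control replicate 2), the progenitor sum is higher, and black points lie above grey ones throughout.

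No member passed the test of a different KCl response in the 2 genotypes (limma interaction), with or without the block, and at an unadjusted p under 0.05 the count was 0 of 30 as well, where 0.313% of all genes were higher and 0.206% lower without the block, and 2.24% and 1.21% with it. At the adjusted threshold the background was 0.00764% of genes called higher and 0% lower without the block, and 0.0153% and 0.0535% with it. The interaction was 0.17 for Pax6 (SE 0.13 with the block), 0.23 for Hmgb2 (SE 0.10) and 0.14 for Pcna (SE 0.15), each with a limma adjusted p of 0.999 with the block. Sox2 passed in Control alone and Pcna in Rem2 KO alone, and these are no shown differences between genotypes.

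Genotypes were compared within each replicate number and KCl state, which gave 4 couples of Rem2 KO against Control, and then with the models. No member passed in either KCl state or averaged over both (limma), with or without the block and under the other settings tried. Over all genes, 0.0153% were called higher and 0.00764% lower without KCl, 0.00764% and 0.0382% with KCl, and 0% and 0.00764% averaged. With the block, 0.0153% were called higher and 0.0153% lower without KCl, 0.00764% and 0.0688% with KCl, and 0.0764% and 0.351% averaged. At an unadjusted p under 0.05, 0 members passed in each KCl state without the block, where 0.367% of all genes were higher and 1.02% lower without KCl, and 0.611% and 0.879% with KCl. With the block 5 members were higher and 0 lower without KCl, where 2.46% of all genes were higher and 5.2% lower, and 6 were higher and 0 lower with KCl, where 3.77% and 3.74% were.

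In sign, the averaged difference was above 0 for 30 of 30 members (29 of 29 without Kif20a, which has values in replicate 2 alone), with a median of 0.19 in log2(FPKM + 1) against 0.00 for all genes tested. Of all genes tested, 6640 of 13089 were above 0. The members come from the same 8 libraries and most cell cycle members vary together across them, so their signs are not separate observations. At an unadjusted p under 0.05, 1 member was higher without the block and 17 with it, and 0 were lower, where 0.779% of all genes were higher and 1.73% lower without the block, and 4.81% and 6.46% with it. Pax6 had the largest averaged difference, 0.30 (SE 0.07 with the block, limma adjusted p = 0.167), and was at -0.03 with only its most abundant transcript entry. It was followed by Birc5, an inhibitor of apoptosis that also sits in the chromosomal passenger complex, at 0.28 (SE 0.08, limma adjusted p = 0.251 with the block). Leaving Kif20a aside, Mcm6 followed at 0.25 (limma adjusted p = 0.254), Mki67 at 0.24 (0.265) and Ccnb2 was last at 0.02 (0.938), all adjusted values with the block. Without the block every one of these had a limma adjusted p of 1.

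Size differed between the couples. The median of the members was 0.07 in replicate 1 without KCl, 0.13 in replicate 1 with KCl, 0.33 in replicate 2 without KCl and 0.20 in replicate 2 with KCl. Over all genes tested the medians were -0.07, -0.00, 0.04 and 0.04 in the same order. Members higher in Rem2 KO numbered 20, 26, 28 and 30 of 30, against 4005, 6295, 7732 and 8202 of all 13089 genes tested. A member was higher in all 4 couples in 17 cases and lower in all 4 in 0, against 8.94% and 11.3% of all genes. The 4 progenitor genes, 7 of 9 spindle and chromosome members and 4 of 7 replication members were higher in all 4 couples, and 2 of 10 cyclins and mitotic kinases were.

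Mcm6 was higher in Rem2 KO in 4 of 4 couples, at 12.4 against 14.0 FPKM and 6.98 against 7.67 FPKM in replicate 1 (Control first, without and with KCl) and at 26.3 against 35.7 FPKM and 14.6 against 18.2 FPKM in replicate 2. The difference between genotypes was smaller than that between replicate numbers in every group. Cdc20 showed 12.2 against 11.4 FPKM and 10.6 against 12.9 FPKM in replicate 1, and 19.7 against 28.4 FPKM and 20.7 against 23.9 FPKM in replicate 2, so it was lower in Rem2 KO in the first couple alone. Summed over the 26 cell cycle members, Control and Rem2 KO had 330 and 336 FPKM, 324 and 361 FPKM with KCl, 531 and 646 FPKM in replicate 2, and 473 and 554 FPKM in replicate 2 with KCl.

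**Figure D5:**
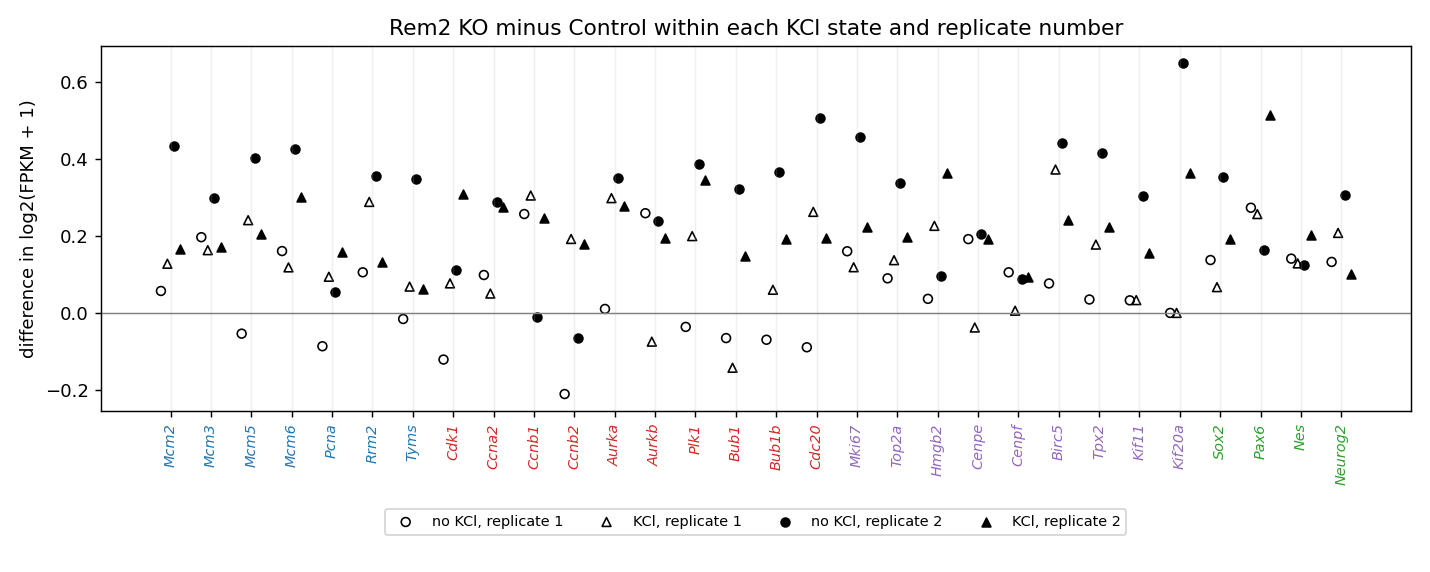
Difference in log2(FPKM + 1) between the Rem2 KO and the Control library of the same KCl state and replicate number, for each of the 30 members tested; circles are without KCl, triangles with KCl, open symbols replicate 1 and filled symbols replicate 2. Most points lie above 0, points under 0 are mainly open circles, and no member passed the test.

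The signs depend on comparing like numbers. Without the block, leaving out Control replicate 1, Control_KCl replicate 1, Rem2 KO replicate 2 or Rem2 KO_KCl replicate 2 turned the median of the averaged difference to -0.03, -0.02, -0.12 and -0.03, where groups with unequal replicate numbers are compared. With the block, leaving out any 1 library left 27 to 30 members above 0, with medians of 0.12 to 0.25. Marker sums are given with Control first and couples as above. Radial glia and progenitor markers, with the members Sox2, Pax6, Nes and Eomes among them, were higher in Rem2 KO. Their sums were 1531 against 1639, 1428 against 1790, 1970 against 2355 and 2220 against 2482 FPKM. Of the markers that are not members, Fabp7 was higher in 4 of 4 couples, Vim and Hes5 in 3 and Hes1 in 2. Summed astrocyte markers were higher too, at 342 against 353, 303 against 323, 407 against 490 and 394 against 413 FPKM. Of these, Aldh1l1, Slc1a3 and Aldoc were higher in 4 of 4 couples, and Gfap, S100b and Slc1a2 in 2. Microglial markers were lower in Rem2 KO in 4 of 4 couples. They were at 15.2 against 12.2, 14.4 against 14.3, 36.3 against 32.1 and 38.7 against 27.8 FPKM. Singly, C1qa was lower in 4 of 4 couples, Aif1, Csf1r and Cx3cr1 in 3, and C1qb and Tyrobp in 2. The sum of endothelial and mural markers was lower in 4 of 4 couples, at 31.3 against 22.4, 35.2 against 27.7, 16.4 against 15.0 and 16.8 against 14.2 FPKM. In it Cldn5 and Pecam1 were lower in 4 of 4 couples and Kdr in 3, while the mural genes Pdgfrb and Rgs5 were lower in 2 and 1. The sum of fibroblast markers changed direction, at 43.2 against 35.9, 38.7 against 32.8, 54.6 against 60.9 and 53.3 against 59.9 FPKM. Its genes differed among themselves, with Dcn and Col3a1 lower in 4 of 4 couples and Col1a1, Col1a2 and Fn1 in 3. Igf2 was lower in 2 couples and Pdgfra in 1. The sums of oligodendrocyte, interneuron and neuronal markers also changed direction between couples. Their part in the differences of the members was not tested.

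Further genes of the same pathways, from lists that the members are not part of, were counted with the same tests. Of 25 DNA replication and S phase genes, 1 passed without the block in each genotype, Mcm7, a further helicase subunit, which fell with KCl by 0.63 in Control (limma adjusted p = 0.0384) and by 0.65 in Rem2 KO (limma adjusted p = 0.0362). Mcm7 was at 29.8 and 24.4 FPKM in Control and at 18.6 and 15.7 FPKM in Control_KCl. With the block 14 of the 25 were lower in Control and 11 in Rem2 KO, and 0 were higher, where 34.3% and 31.4% of all genes were lower and 14.4% and 16.1% higher. The block counts of the lists below stand against these same shares. KCl counts without the block, here and below, stand against 5.18% of all genes higher and 12.2% lower in Control, and 5.73% and 10.3% in Rem2 KO. Of 34 further mitosis genes 0 passed without the block, and with it 1 was higher and 6 lower in Control, and 1 higher and 2 lower in Rem2 KO. In that list, Cdc25b, a phosphatase that activates cyclin-dependent kinases, had the smallest p, at -0.50 in Control (limma adjusted p = 0.177) and -0.25 in Rem2 KO (limma adjusted p = 0.502).

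Inhibitors of the cell cycle gave 4 calls in each genotype without the block. Cdkn1b, which encodes the CDK inhibitor p27, was at 60.6 and 58.7 FPKM in Control and at 125 and 120 FPKM in Control_KCl, a rise of 1.02 (limma adjusted p = 0.00337), and rose by 1.27 in Rem2 KO (limma adjusted p = 0.00195). Gadd45g, a growth arrest gene, rose by 1.36 and 1.25 (limma adjusted p = 0.00881 and 0.0116), and Btg1, an antiproliferative gene, by 0.48 and 0.54 (limma adjusted p = 0.0348 and 0.0266). Cdkn1a, which encodes p21, rose in Rem2 KO (1.57, limma adjusted p = 0.0418), with a difference of 1.38 in Control that did not pass (limma adjusted p = 0.0574), and with the block it passed in both (limma adjusted p = 0.000221 in Rem2 KO, 0.000299 in Control). Cdkn2d fell in Control (-0.37, limma adjusted p = 0.0475). That is 3 of 12 higher and 1 lower in Control, and 4 higher and 0 lower in Rem2 KO. With the block, 5 were higher and 3 lower in Control, and 6 higher and 1 lower in Rem2 KO. Of 20 genes of the G1 cyclins, CDKs, RB and E2F, 1 passed without the block, Tfdp1, an E2F partner, which rose in Rem2 KO (0.72, limma adjusted p = 0.0331). In Control its difference was 0.46 (limma adjusted p = 0.102).

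Of 32 further progenitor and radial glia genes, Sox1, a relative of Sox2, rose in Control (0.72, limma adjusted p = 0.0234) and in Rem2 KO (0.69, limma adjusted p = 0.0286). Lhx2, a cortical progenitor factor, rose in Rem2 KO (0.61, limma adjusted p = 0.0320), and Id2, an inhibitor of bHLH factors, fell in Control (-0.77, limma adjusted p = 0.0467). With the block 5 were higher and 5 lower in Control, and 7 higher and 2 lower in Rem2 KO. Of 20 genes of newborn and migrating neurons, Neurod6 rose (0.88, limma adjusted p = 0.0397) and Tubb3 (-0.74, limma adjusted p = 0.0365) and Elavl4 (-0.48, limma adjusted p = 0.0348) fell in Control, and none passed in Rem2 KO without the block (with it 7 higher and 3 lower). In the averaged genotype comparison none of these lists had a member past the threshold with or without the block. For replication the smallest p values belonged to Mcm7 and Rfc3, with log2 differences of 0.15 and 0.22. For mitosis they belonged to Cks2 and Ube2c, with log2 differences of 0.12 and 0.41. Mcm7 was lower in Rem2 KO in the couples of replicate 1 (-0.09 and -0.02) and higher in those of replicate 2 (0.41 and 0.30). The averaged difference was above 0 in 34 of 34 mitosis genes, against 6640 of all 13089 genes tested. In the replicate 1 couple without KCl, 21 of 34 were higher, with a median of 0.03. Ncapg, in this list, differed by 0 in both replicate 1 couples. These genes share the libraries of the members and add no separate evidence on the genotype.

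With the replicate number, 32 of 34 mitosis genes, 23 of 25 replication genes and 18 of 20 G1 genes were higher in the libraries numbered 2, along with 14 of 32 progenitor genes and 4 of 20 newborn neuron genes. The mitosis list holds Ncapg, which, like Kif20a, had genotype and KCl differences of 0 in replicate 1. Gins2 of the replication list differed by replicate number without KCl (3.96 and 4.02) and by 0 with KCl. The counts were not repeated without these genes. Lower were 2 progenitor and 7 newborn neuron genes, and over all genes 40.3% were higher and 11.2% lower, so the progenitor count was near the background and the newborn neuron count of higher genes below it. Ccnd1 (cyclin D1) went from 8.21 to 9.40 FPKM in replicate 1 to 43.6 to 51.9 FPKM in replicate 2, a difference of 2.30 (limma adjusted p = 8.8e-07). Vim, the filament vimentin of radial glia and many non-neuronal cells, differed by 1.56 (limma adjusted p = 3.58e-05). These lists share the libraries, depth and other cells of the members and add no separate evidence on the replicate number.

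The 5 genes outside the list whose log2(FPKM + 1) profile over the 8 libraries was most like the mean profile of the cell cycle members, among 11539 genes with a mean of at least 2 FPKM, were Fas, Psrc1, Incenp, Rcn3 and Stil (Pearson r = 0.996 for each). Fas, a death receptor gene, was at 2.17 to 3.28 FPKM in the libraries numbered 1 and at 7.51 to 13.4 FPKM in those numbered 2. Within the list, Tpx2, Top2a and Ccna2 followed the mean most closely (r = 0.997, 0.997 and 0.996), while Pcna (-0.32), Pax6 (-0.31) and Neurog2 (-0.23) did not. The mean holds the cell cycle members themselves, Kif20a included, whereas Pax6 and Neurog2 are not part of it, so these values are not on equal terms. These correlations describe 8 libraries that fall into 2 sets by number, and no p is given for them. Reads of a few members cannot be told apart from those of a gene on the other strand, since the files do not state strandedness, namely Ccna2 with Exosc9, Plk1 with Gm44985, Cdc20 with Elovl1, Kif20a with Cdc23 and Eomes with Gm33460. Pseudogene copies are annotated for Pcna, Tyms, Ccnb1, Ccnb2 and Aurkb, which makes their levels uncertain to the extent that reads were shared.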

How the data were processed

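RNA was sequenced from 8 libraries, 2 biological replicates in each of 4 groups. The FPKM values were made and deposited by the authors per the file headers. Alignment and quantification used TopHat and Cufflinks on mm10, per the submitters' processing notes, and versions, annotation and strandedness are not given in the sources used here. TruSeq libraries were made from 500 ng of total RNA, per the labels' protocols.

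RefSeq entries were mapped to symbols and summed per gene (34915 entries, 34015 of 34353 distinct accessions matched, 23830 genes), and 302 genes were left out. Genes reaching 1 FPKM in 2 or more libraries (13089) entered limma 3.58.1 (R 4.3.3) as log2(FPKM + 1), with 4 group means over all 8 libraries. P-values were adjusted by Benjamini-Hochberg over all genes, with a threshold of 0.05. Differences carry the added 1 FPKM and so come out too small for low genes, as fold changes on log2(FPKM + 1). As a check of pairing, libraries with the same number deviated together from the means of their groups, with correlations of 0.708 to 0.783 in all 6 pairs of groups, so the numbers were taken to pair libraries. A fit with the replicate number as a block (3 residual degrees of freedom, against 4) is therefore given beside the first. P-values measure the spread between these samples. Whole reads could not be recovered from FPKM, so no count test was run and intervals from counts are not given. The tests were checked on simulated data. Alternatives were other pseudocounts (0.1 and 0.5), filters, TMM-type scaling, quantile normalization, no variance trend, the most abundant transcript, the block and leaving out each library. The block combined with rescaling or with a left-out library was added after the data were seen. Members and lists were chosen with earlier results of these data known. Genes named from the further lists were those past the threshold without the block, or else those with the smallest p, and those of the newborn neuron list in the genotype comparison are not reported here. Promoter windows were not used for Ccna2, Aurkb, Tpx2 and Kif20a.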

Additional observations from a re-analysis of the deposited data

Results flagged for a closer look

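Ccnb2 differed between the genotypes in opposite directions in the 2 KCl states. Rem2 KO was below Control by 0.14 on average without KCl (a log2 difference of -0.14) and above it by 0.19 with KCl, and both replicate numbers showed these signs. Its level was 5.06 against 4.24 FPKM and 12.1 against 11.5 FPKM without KCl, and 4.33 against 5.09 FPKM and 9.29 against 10.7 FPKM with KCl (Control first, replicate 1 then 2). The limma interaction of 0.32 did not pass (adjusted p = 1, and 0.999 with the block). Ccnb2 has an annotated pseudogene copy.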

How the results depend on the processing

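Each group has 2 libraries, and depth is known only roughly. The block raised the KCl calls and the averaged genotype calls. Members called with KCl in Control went from 1 to 0 with no filter, 3 with TMM-type scaling, 2 with quantile normalization, 10 with the replicate block, 9 with the block and quantile normalization and 11 with the block and TMM-type scaling. Leaving out a library gave 0 to 0 members, or 5 to 12 with the block. In Rem2 KO the count went from 1 to 0 with no filter, with quantile normalization and with the most abundant transcript, 10 with the replicate block, 10 with the block and quantile normalization and 11 with the block and TMM-type scaling. Leaving out a library gave 0 to 1 members, or 6 to 12 with the block.

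Genes called with KCl in Control went from 2278 to 6367 with the replicate block (6059 with quantile normalization, 6314 with TMM-type scaling), 126 to 1902 without 1 library, and 3821 to 6632 with the block. In Rem2 KO they went from 2099 to 6216 (6031 and 6331), 200 to 1412 and 3768 to 6101. Genotype calls without KCl went from 3 to 5 with the block and either rescaling, 1 to 5 without 1 library, and 4 to 19 with the block. With KCl they went from 6 to 2 with a pseudocount of 0.1, 0 with no filter, at least 5 FPKM, TMM-type scaling or the most abundant transcript, and 10 with the replicate block or the block and TMM-type scaling. Leaving out a library gave 0 to 4, or 6 to 14 with the block. Averaged calls went from 1 to 4 with a pseudocount of 0.1, 2 with no filter or no variance trend, 56 with the replicate block and 43 with the block and either rescaling. Leaving out a library gave 1 to 4, or 6 to 42 with the block. Interaction calls went from 1 to 4 and 2 with pseudocounts of 0.1 and 0.5, 2 with no filter or no variance trend, 9 with the replicate block, 9 and 8 with the block and quantile normalization or TMM-type scaling, 0 to 5 without 1 library and 7 to 18 with the block.

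Members called in the genotype and interaction comparisons numbered 0 under all these settings. The replicate comparison gave 27 members, or 26 without any 1 library, and Pax6 turned from -0.19 to 0.11 there with the most abundant transcript. The cause of these moves was not tested.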
